A study of Mus musculus with 9 samples.

Results

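The genes described here encode the proteins of the cytosolic ribosome in RAW264, a mouse macrophage-like cell line from the RIKEN cell bank. They were chosen by name: every gene of the table of all libraries whose symbol starts with Rpl or Rps and a digit, plus Rplp0, Rplp1, Rplp2 and Rpsa, leaving out the S6 kinases (Rps6k), names with -ps and names with Rik. Of 23420 genes listed, 86 met this rule, and 78 of them reached a normalised value of 10 in 3 or more libraries, as did 9564 genes in all, which were the genes tested. The Control group and both clones had 3 RNA-seq libraries each, 9 in all. Control cells carried no mutation per the labels, which do not say whether they are a clone. The clones KO #1 and KO #2 came from RAW264 cells electroporated with vectors for Cas9, a guide RNA and the fluorescent protein ZsGreen1, and each is 1 clone grown from a sorted cell, so a difference from control may belong to that clone alone. The gene Zscan10 encodes a zinc finger protein. Per the sample characteristics it was mutated in exon 2 in KO #1 and in exon 5 in KO #2. The library names in the sample descriptions carry the same numbers, 2 and 5. The names of the raw reads carry the opposite numbers, so the exon of each clone cannot be settled from the labels. No group received RANKL, the cytokine that turns these cells into osteoclasts. Whether the 3 libraries of a group are separate cultures is not in the labels, and the p-values below reflect the spread among these libraries, which may be technical.

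A ribosome is built of a small subunit, which holds the mRNA and reads its codons, and a large subunit, which joins the amino acids and lets the new chain out through a tunnel. Proteins named Rps belong to the small subunit and those named Rpl to the large one. Growing cells keep their mRNAs at high and balanced levels, and most of these mRNAs start with an uninterrupted stretch of C and T, the terminal oligopyrimidine (TOP) tract, through which the kinase mTOR governs their translation.

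The sequences around the transcription start of members described below show where that stretch lies. Each line gives 10 bases before the annotated start and 20 from it on, 5′ to 3′ on the gene's own strand, from the RefSeq promoter table (build GRCm38.p6). Capitals mark runs of 6 or more C and T.
Rps12 (chr10:23787190-23787219, minus strand): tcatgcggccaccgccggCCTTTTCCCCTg
Rps6 (chr4:86857348-86857377, minus strand): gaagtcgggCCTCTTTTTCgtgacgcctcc
Rps18 (chr17:33955646-33955675, minus strand): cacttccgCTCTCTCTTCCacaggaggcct
Rpl12 (chr2:32961702-32961731, plus strand): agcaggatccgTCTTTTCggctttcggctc
Rpl28 (chr7:4792955-4792984, plus strand): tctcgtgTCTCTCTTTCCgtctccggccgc
Rpl27a (chr7:109519185-109519214, plus strand): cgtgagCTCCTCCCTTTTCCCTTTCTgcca
Rps7 (chr12:28635934-28635963, minus strand): cggtttccacccacctacttccgctgtccc
Rpl36al (chr12:69184048-69184077, minus strand): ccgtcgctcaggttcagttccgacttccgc
The first 6 hold such a run at or close to the start, while Rps7 and Rpl36al have none of 6 bases in this window. The table held a promoter for 59 of the 78 tested members. A run of 6 or more C and T lay in the 30-base window of 32 of them (54.2%), against 27.0% of 7304 tested genes and 28.5% of all 27018 promoters. The words CTTTCC or CTTTTC, on the sense strand and often inside such a run, were in the window of 10 members (16.9%) against 2.08% of tested genes. In the whole 300 bases, CCGGAAG, a word bound by ETS family factors, was on either strand of 23 members (39.0%) against 21.9% of tested genes, and AAGATGG, the core word of the factor YY1, was in 8 (13.6%) against 8.28%. Only 1 member (1.69%) had TATAAA on the sense strand in the 50 bases before its start, against 1.15% of tested genes. A match is a string of letters, not a bound site.

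Libraries held 1821703 to 2458539 reads counted in the listed genes. Zscan10 had 0 reads in all 9, control included, so these reads do not check the mutation. The 8 macrophage markers listed all had reads, and they summed to 26008 to 32462 reads in Control, 38844 to 41261 in KO #1 and 30633 to 39042 in KO #2. These sums are not scaled for depth, and single markers went both ways. Of the 7 tested, the fit used below called 4 higher and 1 lower in KO #1, and 1 higher and 4 lower in KO #2. Among all tested genes 10.5% were called higher and 10.2% lower in KO #1, and 10.7% and 11.8% in KO #2. Markers of fibroblasts, T cells, B cells and epithelial cells summed to at most 1 read per list in any library, with Col1a1, Cd3e, Ms4a1 and Epcam at 0. Osteoclast markers, of which Calcr was at 0, summed to 17 to 28 reads in Control, 21 to 33 in KO #1 and 57 to 76 in KO #2, and their part in the results was not tested. One library stood apart within its group in these genes. Over the members, chi-square per degree of freedom (1 is counting error alone) was 3.30 and 3.48 between Control replicate 2 and the other 2 control libraries, 1.04 between those 2, and 0.750 to 1.67 between libraries of 1 clone. In Control replicate 2 Rplp1 lay 0.31 below the mean of the others on the log2 scale (-0.31), Rpl37 -0.21 and Rps29 -0.19, while Rpl36al lay 0.25 above. Counts are therefore also given without it.

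In control cells the mRNAs of these proteins were among the most abundant of all. Their median level was 1531 FPKM (fragments scaled to gene length and library size, so that genes can be compared), with quartiles of 962 and 2014, against 16.0 over all tested genes. Of the 100 genes with the highest control FPKM, 57 were members. The highest was Rpl41, which encodes one of the shortest proteins known, at 3324 ± 176 FPKM (SD, n = 3), followed by Rpl23a, a protein beside the tunnel exit, at 2945 ± 69.7, Rps3a1 at 2857 ± 89.5 and Rpl32 at 2846 ± 33.4. The last 3 lay within their spread of each other. The lowest was Rps19bp1 at 32.0 ± 2.36 FPKM, a protein that binds Rps19 and shares only the name, followed by Rpl7l1, an assembly protein related to Rpl7, at 105 ± 1.82. Rps15a came next at 135 ± 2.72, but its gene model here counts 5134 exonic bases, which lowers any value per length. Rpl22 followed at 201 ± 2.42.

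The 8 members that were not tested are of 2 kinds. Rpl3l, known from muscle, Rpl10l and Rpl39l, known from germ cells, and Rps4y2 had 11, 0, 0 and 0 reads over all 9 libraries. Rpl26, Rpl30, Rpl34 and Rps27, core proteins of the ribosome, had only 0, 73, 35 and 10 reads. Each of these 4 shares exon bases on its own strand with a second listed gene (Gm15772, Gm12191, Rpl34-ps1 and Gm9846), over 95.8%, 76.0%, 67.2% and 60.0% of its exon bases, and those 4 partners had 0 reads too. No tested member shared as much as 50% of its exon bases. In the FPKM tables Rpl26 was listed at 385 ± 23.0 in Control and Rpl30 at 117 ± 24.8. Rps27 was listed there at 4.45, 432 and 2.21 FPKM in the 3 control libraries, so 1 library set its mean. The read counts thus say nothing of these 4 genes. Among tested members, Rpl5 shared 47.7% of its exon bases with Fam69a and Rpl31 33.1% with Tbc1d8, both on the opposite strand, and whether the counting used strand is not given in the sources used here. Ribosomal protein genes also have many processed pseudogenes, and how reads that fit several places were counted is not given either.

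In KO #1 the ribosomal protein genes were lower almost throughout, by a small and even amount. Of the 78 tested, 64 fell, none rose and 14 were not called (limma, Benjamini-Hochberg adjusted p under 0.05 over all genes tested). The median log2 change was -0.16, with quartiles of -0.19 and -0.13, against -0.0066 over all tested genes. Among all tested genes 10.2% were called lower and 10.5% higher. Since high counts make small changes easier to call, the members were also set beside the 254 other tested genes with a control mean of at least 1000 normalised reads, a comparison added after the values were seen: 22.0% of those were lower and 27.6% higher, with a median of -0.0092. Libraries of KO #1 lay wholly below those of Control for 67 members and wholly above for none, where 16.5% and 16.4% of all tested genes did so. Leaving out each library in turn gave 50 to 65 falling members, and leaving out Control replicate 2 gave 65. A bulk sample cannot tell fewer cells of a type from less RNA per cell, and the scaling to the library hides any change that all mRNAs share.

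**Figure D1:**
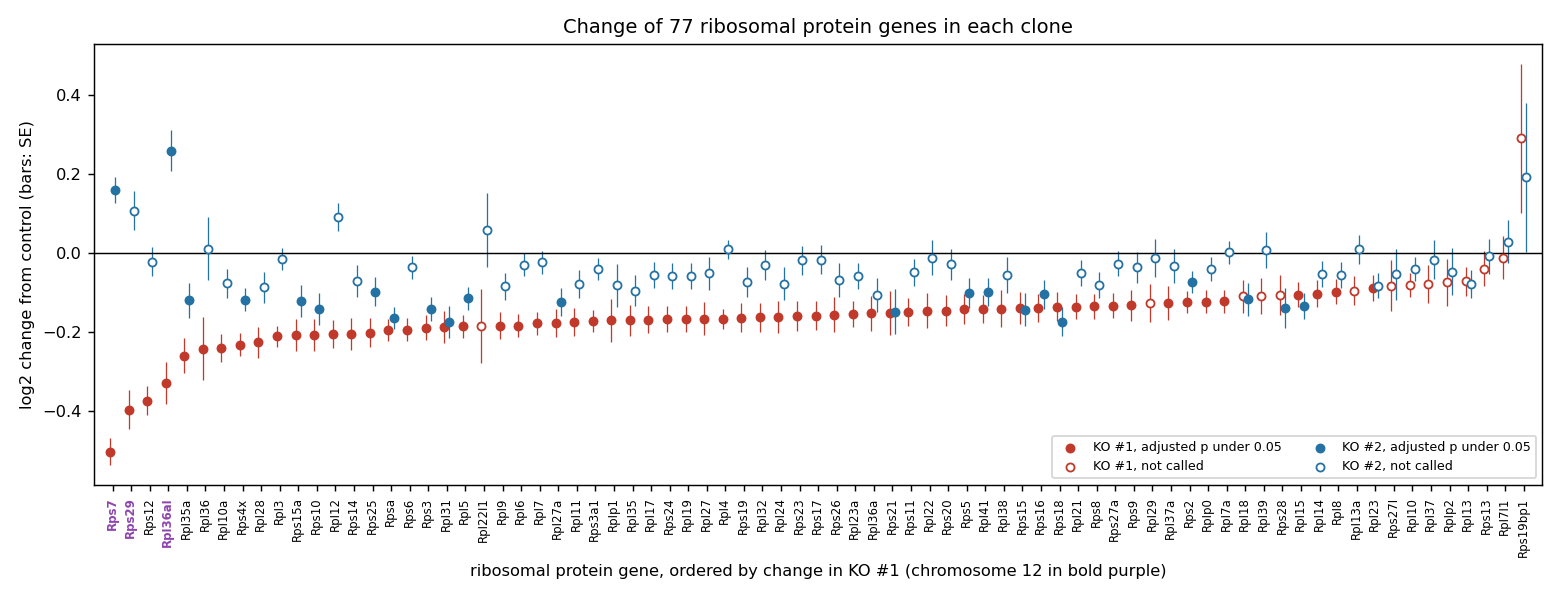
Log2 change from control of 77 of the 78 tested ribosomal protein genes in KO #1 (red) and KO #2 (blue), ordered by the change in KO #1, with bars for the standard error; filled points were called at adjusted p under 0.05 and genes of chromosome 12 are in bold purple. The called genes of KO #1 all lie below 0, and most points of KO #2 lie between them and 0.

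The small subunit had 32 tested members, of which 28 fell in KO #1, with a median of -0.16. Rps7, a small subunit protein that also binds the p53 regulator Mdm2, fell most. Its normalised reads were 2619, 2426 and 2657 in Control, 1773, 1839 and 1816 in KO #1 and 2909.7, 2834 and 2851 in KO #2. No 2 groups overlapped, with KO #1 lowest and KO #2 highest, and the fall in KO #1 was -0.50 ± 0.0332 (log2 ± SE, limma adjusted p = 3.9e-19). Rps29, a zinc-binding protein of the small subunit head, had 1176, 993 and 1090.0 in Control, 764, 817 and 892 in KO #1 and 1234, 1148 and 1123 in KO #2. KO #1 lay below both other groups, which overlapped each other, and its change was -0.40 ± 0.0494 (limma adjusted p = 2.39e-09). Rps12, a small subunit protein that flies need for cell competition, had 2061, 1902 and 1955 in Control and 1458, 1535 and 1570.0 in KO #1. Its KO #2 libraries, at 1993, 1964 and 1869, overlapped those of control. The change of Rps12 in KO #1 was -0.37 ± 0.0367 (limma adjusted p = 1.36e-12).

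Other small subunit proteins moved less. Rps6, the protein that the S6 kinases phosphorylate, had 3433, 3378 and 3349 normalised reads in Control and 2881, 3024 and 2975 in KO #1, a change of -0.19 ± 0.0291 with no overlap (limma adjusted p = 2.92e-07). Rps4x, encoded on the X chromosome, had 3564, 3665 and 3568 in Control against 3066, 3059 and 3059 in KO #1, a change of -0.23 ± 0.0289 (limma adjusted p = 2.15e-09). Rps13 was not called, with 934, 936 and 915 in Control and 937, 906 and 867 in KO #1, which overlap. Rps28 and Rps27l were not called either, at -0.11 and -0.08.

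The large subunit had 46 tested members, of which 36 fell in KO #1, with a median of -0.16. Rpl36al, a copy of Rpl36a on an autosome, fell most: its normalised reads were 796, 935 and 774 in Control, 614, 686 and 688 in KO #1 and 1035, 953 and 1002 in KO #2. Again no groups overlapped, and the change in KO #1 was -0.33 ± 0.0523 (limma adjusted p = 1.06e-06). Rpl35a, a large subunit protein mutated in some patients with Diamond-Blackfan anaemia, had 1214, 1227 and 1186 in Control and 1098, 965 and 969 in KO #1, a change of -0.26 ± 0.0442 (limma adjusted p = 4.07e-06). Rpl36 had 297, 266 and 263 in Control and 204, 238 and 258 in KO #1, at -0.24 ± 0.0795 (limma adjusted p = 0.0202). The groups were apart for both, but the call of Rpl36 was lost without Control replicate 1 or without KO #1 replicate 1. Rpl12, which sits at the base of the stalk, had 1965, 1868 and 1904 in Control, 1608, 1659 and 1710.2 in KO #1 and 1970.0, 2112 and 2026 in KO #2. Only KO #1 fell, at -0.20 ± 0.0353 (limma adjusted p = 5.98e-06). Rpl3, close to the centre where peptide bonds form, changed by -0.21, Rpl4, which lines the tunnel, by -0.17, and Rpl5 and Rpl11, which carry the 5S rRNA into the subunit, by -0.19 and -0.18, all called in KO #1. Rpl3 had 4659, 4732 and 4473 reads in Control and 3971, 3997 and 4001 in KO #1, normalised, without overlap.

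The most abundant members by FPKM changed by about the median. Rpl41 had 2353, 2073 and 2213 normalised reads in Control and 1961, 2006 and 2043 in KO #1, a change of -0.14. Rpl23a had 2650.2, 2519 and 2629.9 against 2219, 2414 and 2379, and Rps3a1 4932, 5086 and 4777 against 4302, 4397 and 4423. Each of these 3 genes had KO #1 libraries wholly below control and was called. Rpl32 had 2212, 2195 and 2136 against 1801, 2090.2 and 1962, a called change of -0.16. Rps15a had 1555, 1491 and 1513 against 1308, 1258 and 1384, a called change of -0.21. Of the stalk proteins, which recruit elongation factors to the ribosome, Rplp0 and Rplp1 fell in KO #1, at -0.12 and -0.17, and Rplp2 was not called, at -0.07. Rplp1 had 1191, 1005 and 1303 in Control and 936, 1053 and 1109 in KO #1, which overlap. The large subunit members that were not called were Rpl7l1, Rpl10, Rpl13, Rpl13a, Rpl18, Rpl22l1, Rpl29, Rpl37, Rpl39 and Rplp2.

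Of the reads counted in all listed genes, the share that fell in these 86 gives the same quantity for whole libraries, without the fit. It was 7.39%, 7.21% and 7.29% in Control, 6.23%, 6.39% and 6.41% in KO #1 and 6.98%, 6.88% and 6.91% in KO #2. The groups did not overlap, with control highest and KO #1 lowest, and the means were 7.30% ± 0.0934, 6.34% ± 0.0953 and 6.92% ± 0.0528 (SD, n = 3). The order was the same without the members on chromosome 12, at 7.09%, 6.19% and 6.69%, and without the 10 genes with most reads in the total, at 7.73%, 6.78% and 7.39%. The share of reads in the 76 tested genes of the mitochondrial ribosome was 0.440% ± 0.00651 in Control, 0.417% ± 0.00363 in KO #1 and 0.446% ± 0.00259 in KO #2. Large subunit genes had 1.36, 1.37 and 1.35 reads for each read of a small subunit gene in Control, 1.39, 1.38 and 1.40 in KO #1 and 1.37, 1.39 and 1.37 in KO #2. Both clones lay above control in this ratio. Without the members on chromosome 12 the ratio was 1.43 ± 0.00322 in Control, 1.44 ± 0.00948 in KO #1 and 1.46 ± 0.0121 in KO #2.

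**Figure D2:**
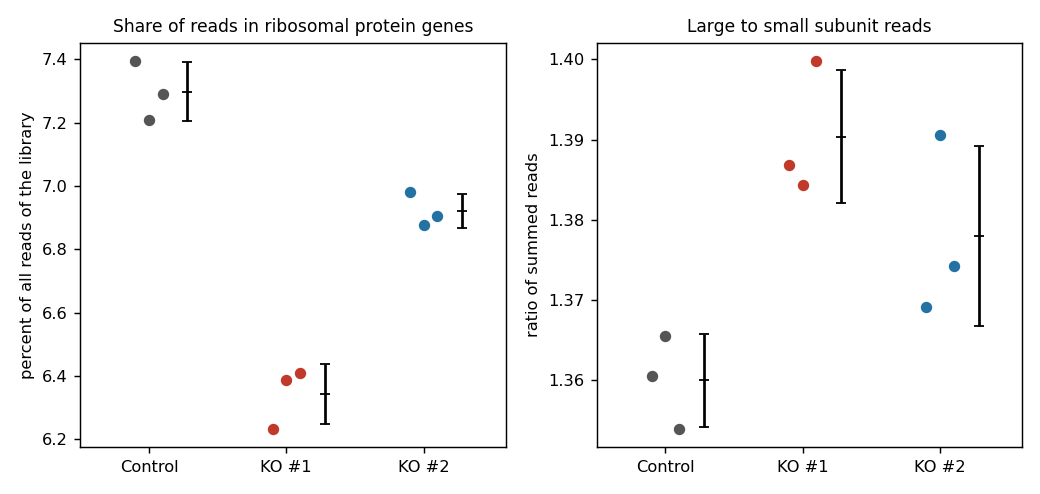
Left, percent of each library's reads counted in listed genes that fell in the 86 ribosomal protein genes. Right, reads in large subunit genes for each read in small subunit genes. Points are libraries and the bar beside them is mean and SD (n = 3); neither axis starts at 0, and the groups on the left lie apart at means of 7.30%, 6.34% and 6.92%.

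In KO #2 the change was smaller, and the share of members called lower was close to that of other abundant genes. Of the 78 tested members 21 fell, 2 rose and 55 were not called, with a median log2 change of -0.056 against -0.0087 over all tested genes. Among all tested genes 11.8% were called lower and 10.7% higher in this comparison. Of the members 26.9% were lower, close to the 27.6% of the 254 other abundant genes, while 2.56% of members and 29.5% of those genes were higher. Libraries lay wholly below control for 29 members and wholly above for 3 (18.1% and 16.4% of all tested genes). The count also rested on single libraries: 14 members were called without Control replicate 1, 15 without KO #2 replicate 2 or replicate 3, and 28 without Control replicate 2, and the median was -0.083 without that library. Both comparisons use the same control libraries, so their directions are not independent of each other.

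By subunit, 13 of 32 small subunit members and 8 of 46 large subunit members fell in KO #2, with medians of -0.070 and -0.054; whether the subunits differ was not tested. Rpl31, a large subunit protein near the tunnel exit, had 1921, 1981 and 1799 normalised reads in Control and 1771, 1753 and 1531 in KO #2, a change of -0.18 ± 0.0407 (limma adjusted p = 0.000617). The groups were apart, but the call was lost without KO #2 replicate 3. Rps18, in the head of the small subunit, had 1949, 1754 and 1871 in Control and 1671, 1589.5 and 1677 in KO #2, apart, at -0.17 ± 0.0373 (limma adjusted p = 0.000213). Rpsa, a small subunit protein also known as a laminin receptor, had 6202, 5697 and 6272 in Control and 5342, 5364 and 5479 in KO #2, at -0.17 ± 0.0282 (limma adjusted p = 3.83e-06). Rpsa was as low in KO #1, at 5097, 5352 and 5415 normalised reads, with a change of -0.19. Rps15 had 1845, 1638 and 1818 in Control against 1647, 1649 and 1499.9 in KO #2, which overlap, and its call (-0.14) was lost without Control replicate 1 or KO #2 replicate 3. Rps21, at 461, 468 and 495 against 413, 429 and 441, was called by a narrow margin (limma adjusted p = 0.0488) that most single libraries, when left out, removed. Rps7 and Rpl36al were the members that rose in KO #2, at 0.16 ± 0.0332 and 0.26 ± 0.0523 (limma adjusted p = 0.00014 and 8.22e-05). The values of Rpl12 in KO #2 lay wholly above control too, at 0.09 ± 0.0353, which was not called (limma adjusted p = 0.0575) but passed under 7 of the other settings tried, among them leaving out Control replicate 1 or KO #2 replicate 1.

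Set directly against KO #1, KO #2 was called higher for 38 of the 78 members and lower for none, with a median log2 difference of 0.092 against 0.0028 over all tested genes. Among all tested genes 12.9% were called higher and 13.5% lower, and among the 254 other abundant genes 30.3% and 29.1%. Groups were apart with KO #2 higher for 42 members and lower for none (18.4% and 19.0% of all tested genes). The count was 23 without KO #1 replicate 1 or without KO #2 replicate 1. The largest differences were those of Rps7 (0.66 ± 0.0332), Rpl36al (0.59 ± 0.0523), Rps29 (0.50 ± 0.0494), Rps12 (0.35 ± 0.0367), Rpl12 (0.30 ± 0.0353) and Rpl36 (0.25 ± 0.0795). The difference of Rpl36, at 247, 302 and 284 normalised reads in KO #2, was not called without KO #1 replicate 1, KO #2 replicate 2 or KO #2 replicate 3. At the other end 7 members had a negative difference, none called: Rps19bp1 at -0.10 ± 0.189, then Rps18 (-0.04), Rps28 (-0.03), Rpl15 (-0.03), and Rpl13, Rpl18 and Rps15 within 0.01 of 0. Large and small subunits had 24 of 46 and 14 of 32 members higher in KO #2.

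**Figure D3:**
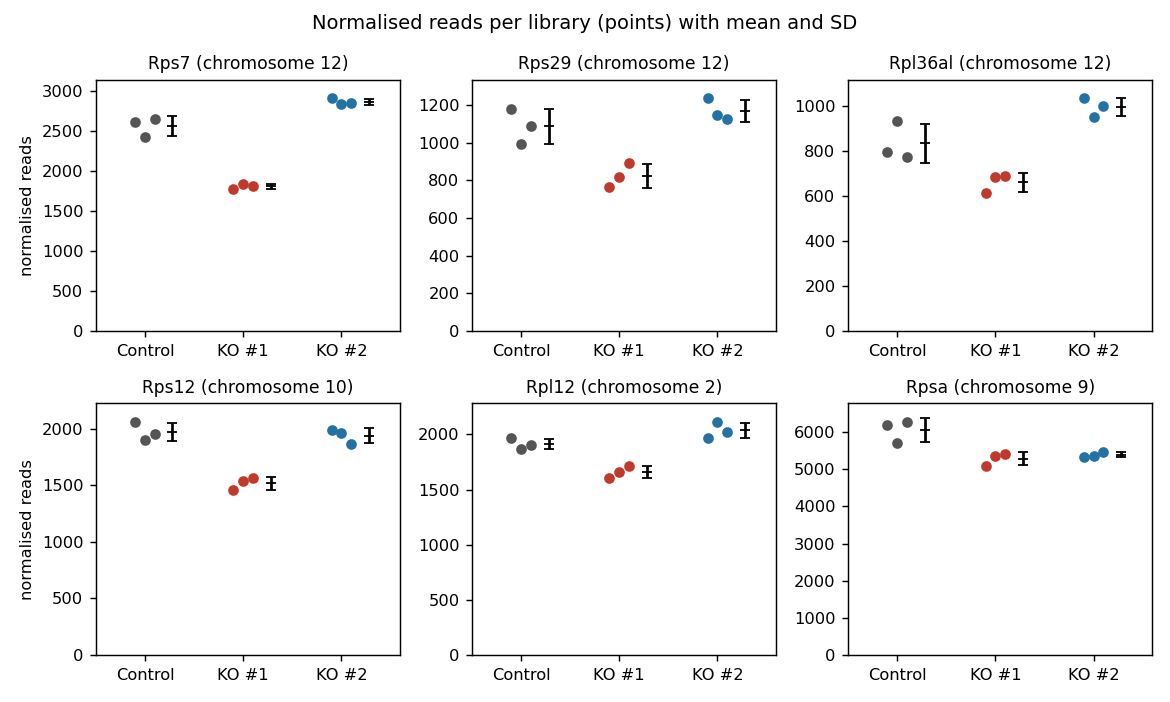
Normalised reads of Rps7, Rps29, Rpl36al, Rps12, Rpl12 and Rpsa in each library (points) with the mean and SD of each group (n = 3), on axes that start at 0. For the first 5 genes KO #1 lies below both other groups, and for Rpsa both clones lie below control.

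The members are spread over 19 chromosomes, and chromosome 12 set 3 of them apart. The other 344 tested genes of that chromosome had a median log2 change of -0.27 in KO #1 and 0.28 in KO #2, and a median difference of 0.57 between the clones. Rps7 (chr12:28630847-28635953 in mm10), Rps29 (chr12:69157722-69159186) and Rpl36al (chr12:69182734-69184067) moved in the same directions as these neighbours, though Rps29 was not called in KO #2, at 0.11 ± 0.0494 (limma adjusted p = 0.117). Within 5 Mb, the 27 other tested genes around Rps7 had medians of -0.29 and 0.20 in KO #1 and KO #2, and the 42 around Rps29 and Rpl36al had -0.25 and 0.37. All 3 members lay below those medians in both clones, with differences (member minus neighbours) of -0.22, -0.15 and -0.082 in KO #1 and of -0.043, -0.26 and -0.11 in KO #2 for Rps7, Rps29 and Rpl36al.

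Away from chromosome 12 the fall in KO #1 did not follow position. Of the 75 tested members elsewhere 61 fell and none rose in KO #1, with a median of -0.16. Their medians by chromosome ran from -0.21 to -0.088, where the other tested genes of the same chromosomes had medians from -0.041 to 0.016. Set against tested genes within 5 Mb, 77 of the 78 members were lower than their neighbours' median in KO #1, by a median of -0.15, with Rps19bp1 the exception. In KO #2, 62 members were lower than their neighbours, by a median of -0.053, and 21 of the 75 members off chromosome 12 fell while none rose. Between the clones 35 of those 75 were higher in KO #2. Rps12 (chr10:23785183-23787209) was the member off chromosome 12 with the largest change in KO #1, -0.37, where the 22 tested genes within 5 Mb had a median of -0.055.

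**Figure D4:**
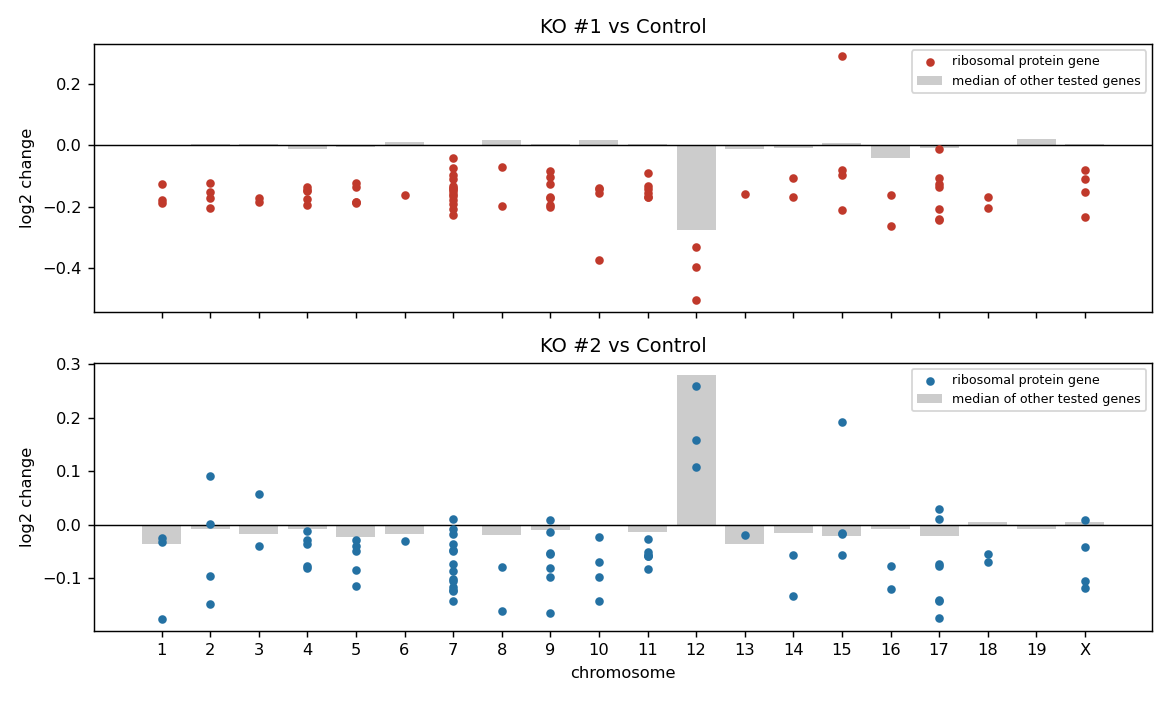
Log2 change from control of each tested ribosomal protein gene (points) by chromosome in KO #1 (top) and KO #2 (bottom), with the median of the other tested genes of that chromosome as a grey bar. Chromosome 12 stands apart in both, with medians of -0.27 and 0.28, and on the other chromosomes the points of KO #1 lie below the bars except for Rps19bp1 on chromosome 15.

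Pairs of related genes did not all move together. Rpl22l1 can replace Rpl22 in the large subunit. Rpl22l1 had 147, 167 and 150.0 normalised reads in Control, 127, 141 and 140.2 in KO #1 and 152, 175 and 157 in KO #2, and Rpl22 had 872, 834 and 856, then 754, 778 and 781, then 843, 837 and 859. Rpl22 fell in KO #1 (-0.15) and Rpl22l1 was not called (-0.19 ± 0.0943). Their ratio per kilobase, 0.776 ± 0.0707 in Control, 0.753 ± 0.0303 in KO #1 and 0.815 ± 0.0676 in KO #2, overlapped between groups. Rpl36a, on the X chromosome, had 994, 1011 and 948 in Control, 851, 897 and 906 in KO #1 and 904, 896 and 943 in KO #2. The ratio of Rpl36al to Rpl36a per kilobase was 0.801 ± 0.0636 in Control, 0.708 ± 0.0220 in KO #1 and 1.03 ± 0.0448 in KO #2, in the order of the levels of chromosome 12, and since these copies are nearly identical their reads may be split uncertainly. Rps27l, a copy of Rps27 that p53 can induce, had 412, 372 and 389 in Control, 378, 365 and 363 in KO #1 and 426, 348 and 359.9 in KO #2, and was not called, while Rps27 itself could not be read. Rpl7l1 had 575, 540.0 and 554 in Control, 556, 531 and 569 in KO #1 and 545, 544 and 616 in KO #2, overlapping throughout (-0.01 and 0.03). Its namesake Rpl7, with 3657, 3789 and 3499.6 in Control, 3276, 3106 and 3287 in KO #1 and 3622, 3585 and 3553 in KO #2, fell in KO #1 (-0.18). Rps19bp1, at 34.0, 35.3 and 37.8 in Control, 34.0, 51.9 and 47.8 in KO #1 and 34.0, 46.1 and 43.7 in KO #2, was not called, and Rps19 fell in KO #1 (1677, 1575 and 1687 against 1475, 1496 and 1434, -0.16). Without Rpl7l1 and Rps19bp1, which are not part of the mature ribosome, all 76 remaining members had a negative change in KO #1.

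The change can also be set beside what the promoters hold, as medians with no test. The 32 members with a run of 6 or more C and T anywhere in the 30-base window and the 27 without had the same median in KO #1, -0.16, and -0.055 and -0.079 in KO #2. Such a run can lie wholly before the annotated start, as in Rpl4, or well after it, as in Rpl11. This split therefore does not sort the mRNAs by a TOP tract. With and without CTTTCC or CTTTTC the medians were -0.17 and -0.16 in KO #1 and -0.091 and -0.058 in KO #2. For CCGGAAG the medians with and without it were -0.17 and -0.16 in KO #1 and -0.074 and -0.055 in KO #2. For AAGATGG, which only 8 members hold, they were -0.15 and -0.16 in KO #1 and -0.034 and -0.073 in KO #2. Of the sequences shown, Rps12 and Rpl12, each with CTTTTC in a run of C and T, were at -0.37 and -0.20 in KO #1. Rpl28, Rpl27a, Rps6 and Rps18, with runs of 11, 20, 10 and 11 bases, were at -0.23, -0.18, -0.19 and -0.14. Rps7 and Rpl36al, which have no such run and lie on chromosome 12, were at -0.50 and -0.33.

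Other parts of the translation machinery were counted beside the ribosomal proteins, by the same fit. Gnb2l1 (Rack1), a small subunit protein that the naming rule misses, fell in both clones (-0.10 and -0.10), and Fau, also outside the rule, was not called (-0.10 and -0.05). Of 8 elongation factors and related genes 3 (37.5%) fell and 1 rose in KO #1, with a median of -0.10, where 10.2% of all tested genes and 22.0% of the other abundant genes fell. In KO #2 1 fell and 1 rose, with a median of 0.0086. There 11.8% of all tested genes and 27.6% of the other abundant genes fell, and 10.7% and 29.5% rose. Those that fell in KO #1 were Tpt1 (-0.15), Eef1b2 (-0.15) and Eef1g (-0.15), of which the last 2 belong to the complex that reloads eEF1A with GTP. Eef1b2 had 1876, 1894 and 1760.3 normalised reads in Control, 1628, 1694 and 1660.4 in KO #1 and 1930.3, 1936 and 1848 in KO #2, so KO #1 stood alone below the others. Eef1a1, the factor that brings tRNA to the ribosome, was not called in either clone (-0.01 and -0.00). Of 19 other mRNAs known to carry a TOP tract, 10 (52.6%) fell and 1 rose in KO #1, with a median of -0.094, and 1 fell and 4 rose in KO #2, with a median of 0.048. Among them Eif3f (-0.19), Ybx1 (-0.17), Pabpc4 (-0.17) and Tpt1 fell in KO #1, while Vim, which encodes an intermediate filament protein, rose in both clones (0.66 and 1.15).

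Of 39 initiation factors, 10 (25.6%) fell and 2 rose in KO #1 (median -0.058), and 8 (20.5%) rose and none fell in KO #2 (median 0.057). In KO #1 10.2% of all tested genes and 22.0% of the other abundant genes fell. In KO #2 10.7% and 29.5% rose, and 11.8% and 27.6% fell. The strongest of the initiation factors, Eif5 and Eif2s1, lie on chromosome 12: Eif5 had 1019, 997 and 998 normalised reads in Control, 834, 786 and 817 in KO #1 and 1427, 1385 and 1335 in KO #2. Off that chromosome Eif5a fell in KO #1 (-0.21) and Eif4e rose in KO #2 (0.22). Of 64 genes for ribosome assembly, 5 fell and 1 rose in KO #1 (median -0.032), and 2 fell and 7 rose in KO #2 (median 0.062). The 7 are 10.9% of these genes, near the 10.7% of all tested genes called higher in KO #2. The 2 are 3.1%, against 11.8% called lower. Urb1 (-1.21), Gnl3l (-0.32) and Nop56 (-0.17) fell in KO #1, and Nop16 (0.29), Mrto4 (0.29) and Ncl (0.16) rose in KO #2. Of 76 mitochondrial ribosomal protein genes, 7 fell and 2 rose in KO #1 (median -0.014), and 2 fell and 3 rose in KO #2 (median 0.042). The mitochondrial counts in KO #2 are below the 11.8% and 10.7% of all tested genes called lower and higher there. For the assembly and mitochondrial genes the counts in KO #1 are below the 10.2% and 10.5% of all tested genes called lower and higher. Mrps6 (-1.02) and Mrpl39 (-0.84), both on chromosome 16 like Urb1, fell most.

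**Figure D5:**
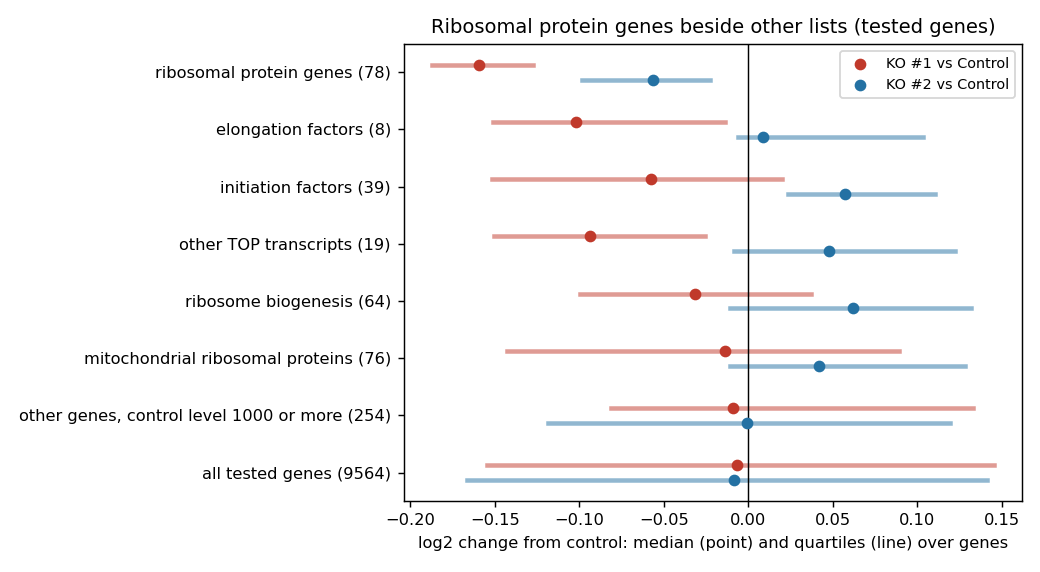
Median (point) and quartiles (line) over genes of the log2 change from control in KO #1 (red) and KO #2 (blue), for the ribosomal protein genes, other lists of the translation machinery, 254 other abundant genes and all 9564 tested genes; the number of tested genes is in parentheses. The median of the ribosomal protein genes is -0.16 in KO #1 and -0.056 in KO #2; the list of growth signalling and transcription factors, at -0.033 and -0.066, is not drawn.

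Of 25 genes of growth signalling and of transcription factors tied to ribosome synthesis, 6 fell and 3 rose in KO #1, against 10.2% and 10.5% of all tested genes, with a median of -0.033. In KO #2 none fell and 4 rose, against 11.8% and 10.7%, with a median of -0.066. Myc, a transcription factor known to drive ribosome production, was barely read: its normalised reads were 0.872, 2.95 and 8.39 in Control, 10.3, 7.99 and 8.13 in KO #1 and 11.3, 17.7 and 8.26 in KO #2. Libraries of each clone overlap those of control. Myc is among the genes counted as higher in both clones, but it reached the filter's value of 10 in only 3 libraries, all of them of the clones, so the filter itself favours that call and nothing is read from it. Gabpa, the DNA-binding subunit of an ETS family factor, had 231, 237 and 236 in Control, 116, 109 and 122 in KO #1 and 198, 251 and 237 in KO #2, so only KO #1 was low (-1.01 ± 0.0876, limma adjusted p = 1.61e-14). Gabpa lies on chromosome 16, as do Mrps6, Mrpl39 and Urb1, which also fell in KO #1. Among the 315 tested genes of that chromosome outside the members, 70 were called lower and 39 higher in KO #1. Yy1, on chromosome 12, fell in KO #1 (-0.37). Larp1, which binds TOP mRNAs and holds back their translation, had 1035, 1024 and 1051 in Control, 1223, 1239 and 1179.8 in KO #1 and 1099, 1049 and 1055 in KO #2, and rose in KO #1 (0.23), as did Eif4ebp1 (0.40), an inhibitor of initiation that mTOR switches off. Rps6ka1, an S6 kinase of the Mapk pathway, fell in KO #1 (-0.50). Akt1 rose in KO #2 (0.48) and fell in KO #1 (-0.17), and lies on chromosome 12. The part of these genes in the change of the ribosomal protein genes was not tested.

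The authors' deposited tables of FPKM comparisons called fewer members. At a q-value under 0.05 the authors' deposited table lists 16 members lower and none higher in KO #1 (of 85 listed, 81 with a completed test), where 7.84% of all its genes pass. The authors' deposited table for KO #2 lists 1 member higher and 2 lower, where 8.68% of all genes pass. Between the clones the authors' deposited table lists 16 members higher and none lower in KO #2, where 10.3% of all genes pass. The authors' deposited table that sets both clones together against control lists none of the 86 at that q-value, where 2.24% of all genes pass. These shares of all genes count both directions over every gene listed, expressed or not. They are thus not on the same base as the counts of members by direction.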

How the data were processed

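mRNA libraries, 9 in all, were made with a stranded kit, per the labels' protocols. The submitters' processing notes give the build mm10 and, without saying which step each served, edgeR 3.20.1, featureCounts 1.4.6, Cufflinks 2.1.1 and TopHat2 2.0.22. The main deposited table is a signal of whole reads per gene scaled by the authors with a factor for each library. All values (100%) were whole multiples of 1 step per library within 1e-06, so the reads were recovered. Deposited FPKM values, scaled by the authors within each table of 2 groups, served for levels between genes. The authors' deposited p-values and q-values were used only where named.

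The fit was limma-trend (limma 3.58.1, R 4.3.3) on log2 of the normalised value plus 1, over all 9564 genes with at least 10 in 3 libraries and all 9 libraries, with group as the term. Folds on this scale understate changes of genes with few reads. Alternatives used edgeR 4.0.16, DESeq2 1.42.0, limma-voom, other scalings and filters, the FPKM tables and leaving out libraries. Neighbours within 5 Mb leave out genes listed on several chromosomes or over more than 3 Mb. The procedure was tested on simulated data, with changed genes drawn from any control level of at least 10. It called 1 of 50 genes changed 1.1-fold, 12 of 50 at 1.3-fold, 44 of 50 at 2-fold and 49 of 50 at 4-fold. It also called 1 unchanged gene. The simulated spread was a fixed value, and few genes were changed. These rates therefore do not give the share of changes found among the members, most of which had high counts.

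The members and lists were chosen with earlier results of these data known. Values in every library were given for the 6 called members with the largest fall and rise in each comparison, members on chromosome 12, related copies with their parent genes, and the 4 highest and 4 lowest by control FPKM. Of other lists up to 4 called genes per direction were eligible to be named. Rps6, Rps4x, Rps13, Rpl3, Rplp1 and the genes named with a change alone were chosen after their values were seen. Some genes that the rule took are not reported here. RefSeq promoters were matched by symbol (65 of 86 members). Reads carry no molecular identifiers, so depth covers counting error only.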

Additional observations from a re-analysis of the deposited data

Results flagged for a closer look

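Rps7 and Rpl36al went opposite ways in the clones. Every KO #1 library lay below and every KO #2 library above the control libraries for both genes, and the clones differed by 0.66 ± 0.0332 for Rps7 and 0.59 ± 0.0523 for Rpl36al on the log2 scale (limma adjusted p = 1.06e-24 and 2.64e-14). Both lie on chromosome 12, where the other 344 tested genes had a median difference of 0.57.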

How the results depend on the processing

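No called value changed sign under any setting. In KO #1, 64 members fell, and 52 to 71 were called under the other settings and 50 to 65 with a library left out. With library totals as the scaling, which moved the median of all genes by less than 0.1, the members' median went from -0.16 to -0.19 in KO #1 and from -0.056 to -0.074 in KO #2; with a library left out it ran from -0.17 to -0.14 in KO #1, from -0.083 to -0.043 in KO #2 and from 0.072 to 0.10 between the clones. In KO #2 the count of 23 became 14 with no filter on low values, 13 by DESeq2, 14 with libraries thinned to the shallowest, 14 in the FPKM tables, 13 at an adjusted p under 0.01, 32 with library totals, and 14 to 28 with a library left out. Between the clones the count of 38 became 23 by DESeq2, 25 in the FPKM tables, 23 at an adjusted p under 0.01, 46 with upper quartile factors, and 23 to 41 with a library left out. The cause of these moves was not tested. The shares of reads without the 10 genes with most reads (7.73%, 6.78% and 7.39%) or without chromosome 12 members (7.09%, 6.19% and 6.69%) kept their order. Residuals of libraries with equal replicate numbers had correlations of -0.017 to 0.028. No pairing was seen, which does not show that the libraries were unpaired. A replicate block gave 63, 21 and 37 calls. For the named members 1085 values stayed on their side of the threshold, 77 lost a call and 8 gained one. For single genes, the median SE of a member, which reflects the spread among libraries, was 0.037 on the log2 scale. It stands against a median change of -0.16 in KO #1 and of -0.056 in KO #2.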
